A study of Mus musculus with 12 samples.

Results

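Small vessel endothelial cells are the cells that line the capillaries and small arteries in the outer wall of the aorta and the fat around it. They were taken here from single-cell RNA sequencing of mouse aorta, chosen by the UMI counts of marker genes in each barcode (UMIs, unique molecular identifiers, count captured RNA molecules). A barcode had to have more than 200 genes, more than 1000 UMIs and under 10% mitochondrial UMIs. At least 2 of the 6 endothelial genes Pecam1, Cdh5, Cldn5, Egfl7, Eng and Mmrn2 had to be detected, with no UMI of Ptprc, a gene of leukocytes, or of Prox1, the regulator of lymphatic identity. The summed UMIs of Rbp7, Sema3g, Gpihbp1 and Gja4 had to be 2 or more. They also had to be above the sum of Gkn3, Gja5, Bmp6 and Ptprr, which gave the arterial class, and above that of Selp, Chp2, Grrp1 and Ackr1, which gave the venous class. The rule held for 2814 of 9289 endothelial barcodes, of 38072 barcodes within the limits and of 73666 deposited barcodes. The arterial class held 675 barcodes and the venous class 1113.

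All 4 groups were labelled ApoE-/-, and the study's methods give male mice on the C57BL/6J background, aged 8 weeks at the start and followed for 24 weeks, with 18 mice per group. The group labelled Healthy had a normal diet, and the AS (atherosclerosis) group high-fat food over the whole period. The MTZ-treated and MTZ-preventive groups had the same food with methazolamide, an inhibitor of carbonic anhydrases, at 25 mg/kg every other day for the last 12 weeks or for all 24 weeks. The labels write methoxazolamide. The aortas of 6 mice were pooled per group into 1 gene expression library, which leaves no spread between mice to judge a condition by, and no test between conditions was made. Intervals given for conditions are exact 95% intervals (Poisson for levels, Clopper-Pearson for shares, conditional binomial for ratios) and cover counting error alone. Levels are CPM, the UMIs of a gene scaled to 1000000 summed UMIs of the members.

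Of the 2814 members, 465 came from the library labelled Healthy, 340 from that of AS, 635 from MTZ-treated and 1374 from MTZ-preventive, with 1692267, 591660, 1350163 and 4030892 UMIs. The median member had 2545 UMIs in the library labelled Healthy, 1448.5 in that of AS, 1568 in that of MTZ-treated and 2144 in that of MTZ-preventive. A count of 0 (up to 3 UMIs) therefore allowed up to 5.07 CPM in AS and less in the other 3. Apoe, the gene knocked out in all groups by their labels, was read first. It stood at 850 CPM (807 to 895) in the members of the library labelled Healthy, 15.2 in that of AS, 35.6 in that of MTZ-treated and 16.9 in that of MTZ-preventive. The library labelled Healthy thus went against its genotype label, also in barcodes outside the endothelial gate, with 549 CPM there against 4.84 to 8.29 in the other libraries. Every ratio against it compares libraries that differ in this way as well as in diet. Of the members, 38 in the library labelled Healthy, 32 in that of AS, 47 in that of MTZ-treated and 109 in that of MTZ-preventive had a barcode sequence that was also listed in another library. Only 3 barcodes were members in more than 1 library, and leaving the shared barcodes out moved no count of genes between classes by more than 1.5 times.

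Capillary endothelium of fat, muscle and heart is specialised to take up fatty acids. GPIHBP1 holds lipoprotein lipase at the vessel surface, CD36 takes up the released fatty acids, and FABP4 and FABP5 carry them inside the cell, with PPARG, MEOX2 and TCF15 among the factors that control these genes. Small arteries instead carry connexin 37, the product of Gja4, and the guidance cue SEMA3G. Carbonic anhydrase 4, bound to the luminal membrane of capillaries, converts carbon dioxide and bicarbonate and belongs to the enzyme family that methazolamide inhibits.

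The members made up 29.9% (27.6 to 32.2) of endothelial barcodes in the library labelled Healthy, 40.4% (37.1 to 43.8) in that of AS, 22.8% (21.2 to 24.4) in that of MTZ-treated and 33.5% (32.1 to 35.0) in that of MTZ-preventive. The 4 intervals of these shares did not overlap, except those of Healthy and MTZ-preventive, which met at 32.1 to 32.2%. With each barcode thinned to 1000 UMIs the shares were 22.7%, 34.2%, 18.3% and 26.1%, in the same order of libraries. Of all barcodes within the limits, the members were 3.77%, 15.4%, 8.80% and 8.42%. After thinning these shares were 2.33%, 10.4%, 5.72% and 4.48%. Without barcodes holding 3 or more genes of other cells they were 8.22%, 38.6%, 22.6% and 17.6%.

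**Figure D1:**
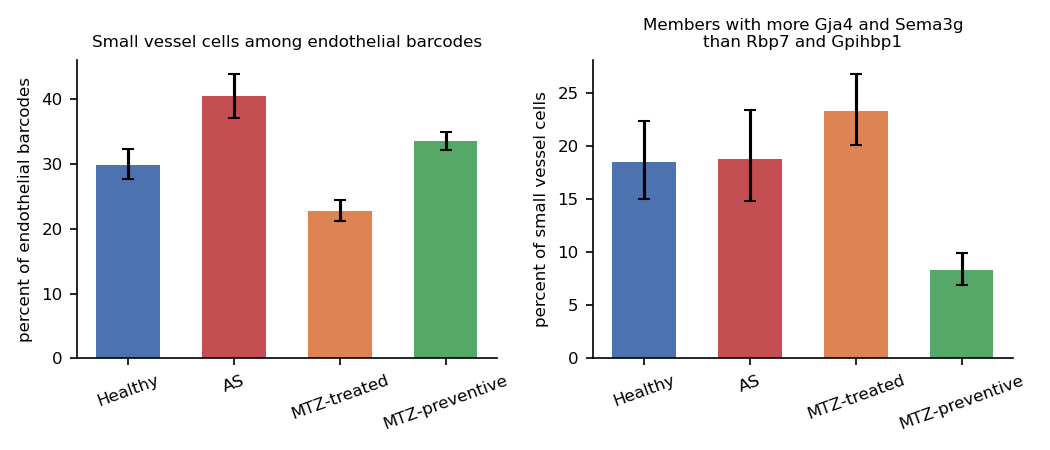
Left, small vessel cells as percent of endothelial barcodes in each of the 4 libraries, from 22.8% in MTZ-treated to 40.4% in AS. Right, percent of small vessel cells with more Gja4 and Sema3g than Rbp7 and Gpihbp1 UMIs, from 8.37% in MTZ-preventive to 23.3% in MTZ-treated. Error bars are exact 95% binomial intervals, with 1 library per bar.

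The genes of the rule are given as a description, since they chose the members. Rbp7, a retinol-binding protein of fat and muscle capillaries, stood at 1230 CPM in the library labelled Healthy, 605 in that of AS, 1352 in that of MTZ-treated and 888 in that of MTZ-preventive. Gpihbp1 stood at 1487, 2006, 869 and 1559 CPM in the same order, so that AS held the lowest Rbp7 and the highest Gpihbp1 level. Without barcodes holding 3 or more genes of other cells, the log2 ratio of Rbp7 in AS to the Healthy label turned from -1.01 to 0.18. Sema3g was at 190, 316, 210 and 103 CPM and Gja4 at 264, 257, 370 and 153 CPM, with MTZ-preventive lowest in both. In the arterial class Sema3g was at 89.5, 57.1, 87.8 and 167 CPM and Gja4 at 305, 200, 256 and 306 CPM. Gja4 was thus not particular to the small vessel cells. Igf2, an imprinted growth factor that was named as a marker of these cells but was not in the rule, stood at 99.9, 117, 109 and 43.4 CPM. Its lower level in MTZ-preventive than in AS turned to a higher one, with a log2 ratio of 1.33, when barcodes with 3 or more genes of other cells were left out, which kept 39 members in AS and 128 in MTZ-preventive.

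Members just inside the threshold, with a gate sum of 2, held less of the capillary genes than the others. In AS, the 98 barcodes with a sum of 2 had 739 CPM of Cd36 and 128 CPM of Car4, and the 242 barcodes with 3 or more had 2193 and 793 CPM. The 148 AS barcodes just outside, with a sum of 1, had 542 CPM of Cd36 and 135 CPM of Car4. In the library labelled Healthy the Car4 level was 52.2 CPM at a sum of 2, 344 CPM at 3 or more and 8.34 CPM at 1.

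Against the arterial class, the small vessel cells carried far more of the fatty acid uptake genes and less of the genes of the aortic inner lining. The test was edgeR's quasi-likelihood test on summed counts with the library as a block, over 3001 genes outside the rule with Benjamini-Hochberg adjustment. It called 192 genes higher (6.4% of those tested) and 197 lower (6.56%) in the small vessel cells. Because single barcodes were put in classes by 12 of their own genes, these calls describe which other genes went with those 12. The AS library gave only 20 arterial barcodes with 35003 UMIs, where a count of 0 allows up to 85.7 CPM.

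Car4 was at 314 CPM in the small vessel cells of the library labelled Healthy, 625 in those of AS, 188 in those of MTZ-treated and 290 in those of MTZ-preventive, against 2.39, 0, 2.58 and 1.37 CPM in arterial cells. The fitted log2 fold change was 6.97 ± 0.30 (SE, adjusted p = 6.2e-05), and the classes did not overlap in any library. Cd300lg, a receptor of capillary endothelium, was at 4.84 ± 0.29 (adjusted p = 0.00016), and Thrsp, a lipogenic nuclear protein that is also in the adipocyte list, at 4.83 ± 0.24 (adjusted p = 0.00012). Aqp7, an aquaglyceroporin, was at 5.55 ± 0.34 (adjusted p = 0.00016) and Btnl9, a butyrophilin-like protein, at 4.93 ± 0.28 (adjusted p = 0.00016). Of 18 tested genes of the capillary list, 15 were higher and 0 lower, with a median log2 fold change of 3.18, beside 0.03 over all genes tested. Of 7 tested adipocyte genes 5 were higher too, as were 5 of 8 smooth muscle genes and 2 of 2 pericyte genes, and their part in these calls was not tested.

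All 11 tested genes of fatty acid and lipid handling were higher, with a median of 3.72. Cd36 was at 1224, 1827, 654 and 1329 CPM in the small vessel cells against 29.8, 171, 40.04 and 53.3 CPM in arterial cells (log2 4.57 ± 0.28, adjusted p = 0.00016). Lpl, which codes for lipoprotein lipase, was at 427, 830, 181 and 505 CPM against 11.9, 143, 10.3 and 31.5 CPM (4.21 ± 0.33, adjusted p = 0.00044). In both genes the AS arterial cells stood above those of the other libraries. Pparg was higher by 3.72 ± 0.40 (adjusted p = 0.0019), Tcf15 by 3.75 ± 0.30 (adjusted p = 0.00048) and Meox2 by 2.32 ± 0.31 (adjusted p = 0.0044), each in 4 of 4 libraries. Kdr, the main VEGF receptor, was higher by 3.63 ± 0.28 (adjusted p = 0.00044), 1 of 2 higher genes among 12 tested of VEGF, angiopoietin and Notch signalling.

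On the other side, 9 of 12 tested aortic intima genes were lower and 0 higher (median -1.80). Cytl1, a small secreted protein, stood at 106, 237, 412 and 97.5 CPM in the small vessel cells and at 3415, 2228, 2555 and 3043 CPM in arterial cells (log2 -3.94 ± 0.47, adjusted p = 0.0027). The matrix genes Mgp (-2.09 ± 0.24, adjusted p = 0.0022) and Eln, which codes for elastin (-1.79 ± 0.26, adjusted p = 0.0063), and the signalling gene Bmp4 (-3.10 ± 0.29, adjusted p = 0.001) were also lower. Vwf and Edn1, which code for von Willebrand factor and endothelin 1, and Ace were among the 4 lower genes of 14 tested for vascular tone, clotting and shear. Of 15 tested arterial genes, 4 were lower (Stmn2, Tm4sf1, Ltbp4 and Edn1) and 0 higher. The other 11 passed the test in neither direction, among them Hey1, Sox17, Efnb2, Dll4, Notch1 and Notch4, with a list median of 0.04.

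Against the venous class the test covered 2885 genes and called 301 higher (10.4%) and 359 lower (12.4%). The capillary genes were again higher, with 14 of 18 higher and 2 lower (median 1.46, beside 0.03 over all genes), and 8 of 12 lipid genes were higher (median 1.35). So were 4 of 7 adipocyte genes, 4 of 8 smooth muscle genes and 3 of 3 pericyte genes. Car4 differed by 3.96 ± 0.45 on the log2 scale (adjusted p = 0.0017), with 5.91, 145, 4.32 and 16.2 CPM in the venous cells. Timp4, an inhibitor of metalloproteinases, differed by 3.45 ± 0.42 (adjusted p = 0.0022) and Fabp4 by 1.23 ± 0.10 (adjusted p = 0.00041). Aqp1, the water channel, and Emcn, endomucin, went the other way, at -1.49 ± 0.15 (adjusted p = 0.0011) and -0.90 ± 0.15 (adjusted p = 0.0069). Both are often used as capillary genes, and both were more abundant in the venous cells in 4 of 4 libraries.

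Against venous cells 6 of 11 tested arterial genes were higher and 1, Edn1, was lower. Sox17 (1.93 ± 0.22, adjusted p = 0.0018), Notch4 (1.92 ± 0.28, adjusted p = 0.0040) and the Notch ligand gene Dll4 (1.36 ± 0.18, adjusted p = 0.0028) were among them. Of 10 tested venous genes, 7 were lower and 0 higher. Plvap, the diaphragm protein of fenestrated vessels, stood at 238, 215, 246 and 349 CPM against 1695, 848, 961 and 1675 CPM (-2.33 ± 0.16, adjusted p = 0.00031). Nr2f2, the regulator of venous identity, was at -1.15 ± 0.12 (adjusted p = 0.0013). The adhesion genes Vcam1, at -2.30 ± 0.29 (adjusted p = 0.0025), Icam1 and Sele were lower too, as 6 of 12 tested adhesion and chemokine genes were, while Icam2, Podxl and Cxcl2 were higher. Of 20 immediate early and stress genes, 11 were lower and 1 higher than in venous cells, and against arterial cells 0 were lower and 1 higher.

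**Figure D2:**
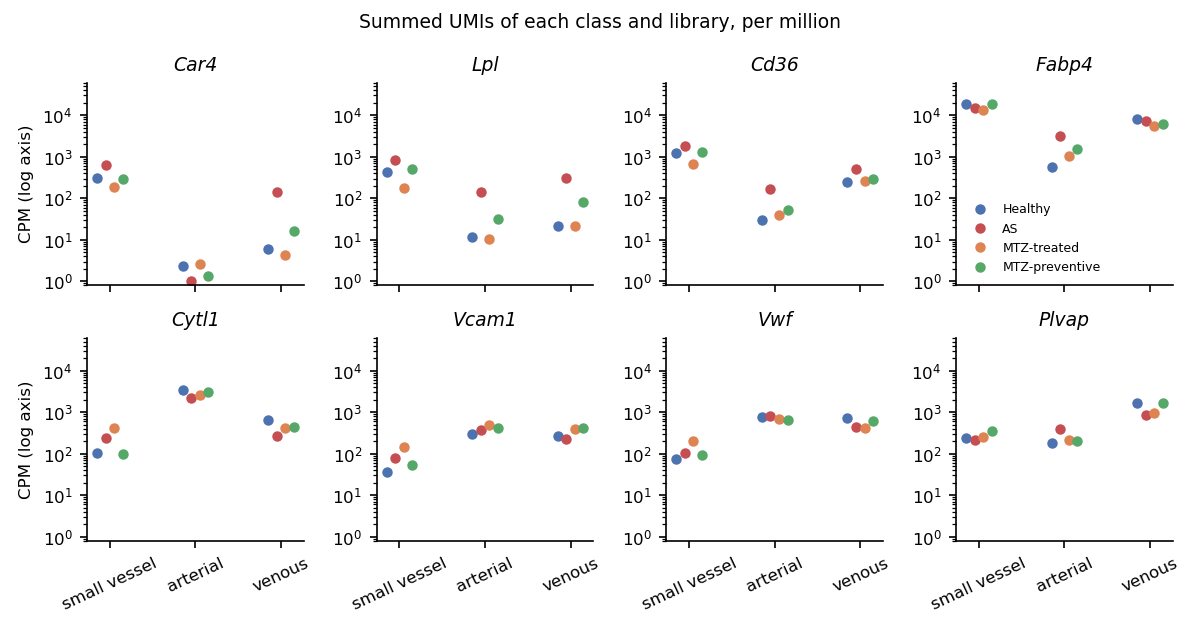
CPM (log axis) of 8 genes in the summed UMIs of small vessel, arterial and venous cells, 1 point per library; values under 1 CPM are drawn at 1. Car4, Lpl, Cd36 and Fabp4 were highest in the small vessel cells, Cytl1 was highest in the arterial cells and Plvap in the venous cells.

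The members were not of 1 kind. Of the 2814, 413 (14.7%) had more UMIs of Gja4 and Sema3g than of Rbp7 and Gpihbp1, 2162 (76.8%) had more of Rbp7 and Gpihbp1, and 239 (8.49%) had equal sums. The first side made up 18.5% (15.1 to 22.3) of members in the library labelled Healthy, 18.8% (14.8 to 23.4) in that of AS, 23.3% (20.1 to 26.8) in that of MTZ-treated and 8.37% (6.96 to 9.96) in that of MTZ-preventive. The interval of MTZ-preventive lay below the other 3, whose intervals overlapped each other. After thinning to 1000 UMIs the shares were 12.5%, 18.7%, 17.2% and 8.34%, with the interval of MTZ-preventive (6.44 to 10.6) overlapping that of the Healthy label (8.91 to 16.9). Without barcodes holding 3 or more genes of other cells they were 8.70% of 69, 2.56% of 39, 17.1% of 129 and 10.2% of 128 members, so that MTZ-preventive was not the lowest. Between the sides, with the 20 genes of the gates left out, 184 of 2939 genes were higher on the Gja4 and Sema3g side (6.26%) and 218 lower (7.42%). Because single barcodes were put on a side by 4 of their own genes, these calls describe which other genes went with those 4.

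Most capillary genes were lower on the Gja4 and Sema3g side than on the Rbp7 and Gpihbp1 side. All 11 tested lipid handling genes and 16 of 18 capillary genes were lower on the Gja4 and Sema3g side, with medians of -2.06 and -2.29 beside -0.03 over all genes. Car4 was at 0, 37.4, 10.3 and 17.3 CPM there and at 410, 890, 293 and 338 CPM on the other side (log2 -5.002 ± 0.32, adjusted p = 1.3e-05). Cd36 was at 279, 710, 105 and 311 CPM against 1512, 2320, 942 and 1512 CPM (-2.40 ± 0.19, adjusted p = 3.8e-05). No library overlapped between the sides in either gene. All 7 tested adipocyte genes were lower on the Gja4 and Sema3g side as well, and their list summed to 299, 2758, 426 and 3501 CPM there against 1610, 9853, 3532 and 11621 CPM. Their part in the difference between the sides was not tested. Without barcodes holding 3 or more genes of other cells the counts were 60 higher and 79 lower, with only 6, 1, 22 and 13 barcodes left on the Gja4 and Sema3g side.

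The Gja4 and Sema3g side instead carried genes of the aortic intima, 11 of 12 tested being higher (median 1.78). Cytl1 was at 452, 580, 1151 and 505 CPM there and at 23.97, 95.7, 104 and 44.9 CPM on the other side (3.43 ± 0.21, adjusted p = 1.3e-05). These levels lay below the 2228 to 3415 CPM of the arterial class. Gja4, which helped to set this side, was also at 305, 200, 256 and 306 CPM in the arterial class. The part of arterial cells on this side was not tested. Clu, which codes for the chaperone clusterin, was higher by 2.52 ± 0.20 (adjusted p = 3.5e-05), Mgp by 2.43 ± 0.19 (adjusted p = 3.5e-05), Eln by 2.07 ± 0.36 (adjusted p = 0.0036) and the Wnt antagonist Sfrp1 by 3.48 ± 0.46 (adjusted p = 0.00074). Jag1, a Notch ligand gene, was higher by 1.80 ± 0.20 (adjusted p = 0.00022), 1 of 7 higher among 15 arterial genes. Of 20 immediate early and stress genes, 13 were higher and 0 lower, with Fos at 0.69 ± 0.11 (adjusted p = 0.0017).

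Igf2, named as a marker of small vessel cells, followed this side. Its level was 309, 206, 190 and 155 CPM on the Gja4 and Sema3g side and 44.9, 63.8, 71.4 and 27.3 CPM on the other (2.13 ± 0.23, adjusted p = 0.00024). Against the venous class it was higher (1.35 ± 0.35, adjusted p = 0.032), and against the arterial class it was at -1.18 ± 0.36 (adjusted p = 0.074), lower in 4 of 4 libraries without passing the test. Neither call was stable: the one against venous cells was lost under 4 alternatives, without AS, MTZ-treated or MTZ-preventive (log2 1.28, 0.85 and 1.46) and without the library block (1.44). Against arterial cells Igf2 passed the test as lower under 5 alternatives, with log2 fold changes from -1.10 with DESeq2 to -1.75 after thinning. After thinning to 1000 UMIs, 9.68% of members had an Igf2 UMI in the library labelled Healthy, 10.9% in that of AS, 9.76% in that of MTZ-treated and 4.88% in that of MTZ-preventive. In Ptprc-positive barcodes with no endothelial gene the shares were 0.103% of 2918 barcodes, 0 of 44 (up to 8.04%), 0.885% of 226 and 0.506% of 1185, at median depths of 2368, 1503, 1846 and 2034 UMIs. Igf2 thus did not mark the small vessel cells apart from arterial cells. The name small vessel endothelial cells is kept for both sides as the rule defines them.

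**Figure D3:**
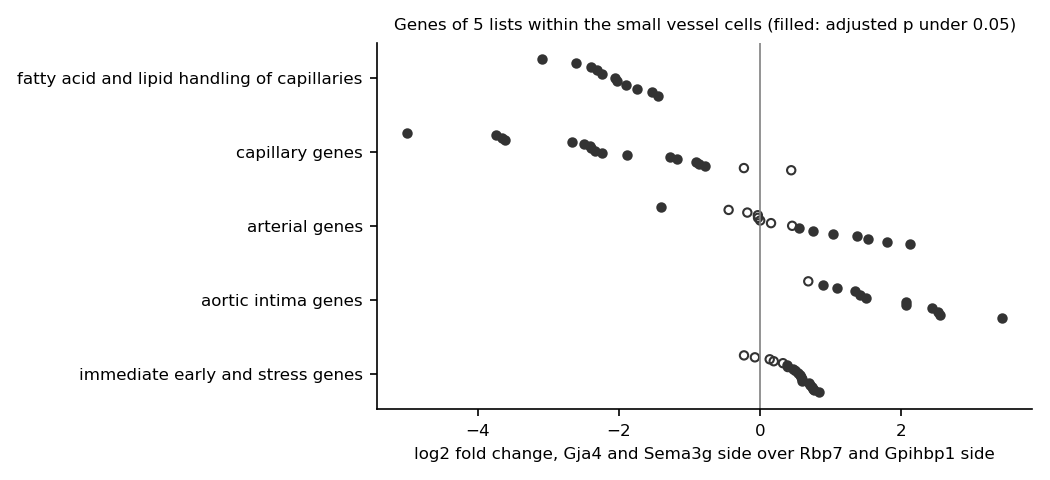
log2 fold change of the tested genes of 5 lists between members with more Gja4 and Sema3g UMIs and members with more Rbp7 and Gpihbp1 UMIs, from the fit over 4 libraries. Filled points passed an adjusted p of 0.05; all lipid handling genes lie left of 0 and 11 of 12 aortic intima genes are filled to the right.

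Genes of other cells were present in most member barcodes and differed between libraries. At least 3 different genes of the lists of other cell types were found in 85.2% of members in the library labelled Healthy, 88.5% in that of AS, 79.7% in that of MTZ-treated and 90.7% in that of MTZ-preventive. Fewer were found in 69 of 465, 39 of 340, 129 of 635 and 128 of 1374 members. Among all endothelial barcodes this held for 182 of 1556, 79 of 841, 376 of 2791 and 277 of 4101. Such genes were thus not particular to the members. The adipocyte list (10 genes, of which Lep was at 0 in 3 libraries) summed to 1301, 8157, 2780 and 10546 CPM, led by Cfd, which codes for adipsin. Outside the endothelial gate it summed to 297, 16608, 685 and 8286 CPM, so that AS and MTZ-preventive stood highest in both. Adipoq, the defining adipocyte hormone, was at 22.5, 199, 52.6 and 247 CPM in the members.

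The neutrophil list (7 genes, led by S100a9) summed to 66.8, 1996, 25.2 and 54.6 CPM in the members and to 291, 13785, 189 and 311 CPM outside the gate. Cxcr2 and Ltf were at 0 in the members of the 3 libraries other than AS. The macrophage list (8 genes) summed to 12.4, 1230, 128 and 104 CPM, led by Lyz2 in 3 libraries. C1qc, Csf1r and Adgre1 were at 0 in the members of the library labelled Healthy. Both lists were thus highest in AS, within the gate and outside it. The smooth muscle list (8 genes, led by Tagln) was lowest in AS, with 6396, 2687, 6983 and 3966 CPM. The lymphatic list summed to 980, 57.5, 393 and 327 CPM, led by Pdpn in AS, where Ccl21a and Reln were at 0, and by Ccl21a in the other 3 libraries. The pericyte list summed to 762, 260, 516 and 325 CPM, lowest in AS, and the fibroblast list to 2972, 2910, 2814 and 3499 CPM. The T cell list summed to 68.5, 13.5, 21.5 and 35.0 CPM, the Schwann cell list to 201, 18.6, 61.5 and 75.9 CPM and the red blood cell list to 144, 466, 111 and 13.9 CPM. Brown adipocyte genes summed to 7.68, 45.6, 27.4 and 43.7 CPM and mesothelial genes to at most 11.9 CPM. The part of such RNA in the condition ratios was not tested.

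**Figure D4:**
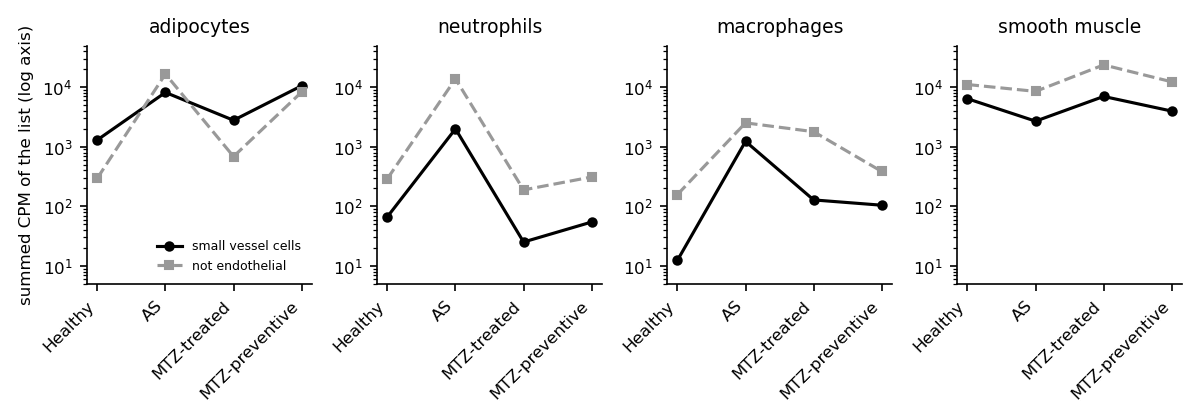
Summed CPM (log axis) of 4 lists of other cell types in small vessel cells (black circles) and in barcodes outside the endothelial gate (grey squares), by library. The neutrophil list reached 1996 CPM in AS small vessel cells and at most 66.8 CPM in the other 3.

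In AS against the library labelled Healthy, 9 of 13 metallothionein and acute phase genes were past a ratio of 2 upwards. All 4 MHC class II genes with at least 50 CPM and 7 of 12 interferon-stimulated genes were past it downwards. Of 2960 genes with a mean of at least 50 CPM, 102 (3.45%) were past a ratio of 2 upwards with 10 CPM added to both sides, and 123 (4.16%) downwards, with a median log2 ratio of -0.10 over all genes. All 3 comparisons of conditions are descriptions of single libraries, and all 3 share the AS library. In MTZ-treated against AS, 58 genes (1.96%) were past 2 upwards and 92 (3.11%) downwards. In MTZ-preventive against AS the counts were 66 (2.23%) and 28 (0.946%).

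The metallothioneins, which bind zinc and copper and are induced by metals and glucocorticoids, stood apart between libraries. In the library labelled Healthy Mt1 was at 592 CPM (555 to 629), against 8561 (8327 to 8800) in that of AS, 1195 (1137 to 1254) in that of MTZ-treated and 7676 (7591 to 7762) in that of MTZ-preventive. Mt2 was at 114, 1268, 200 and 967 CPM. AS and MTZ-preventive were high in both genes and the other 2 libraries low. AS stood 14.5-fold (13.5 to 15.5) above the library labelled Healthy in Mt1 and 7.17-fold above MTZ-treated. Outside the endothelial gate Mt1 followed the same order, at 569, 13746, 2099 and 7720 CPM.

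Because Mt1 and Mt2 moved together, the 250 bases before the start of each are shown, from RefSeq on build GRCm38.p6, plus strand, 5′ to 3′. Capitals mark the letters TGCACNC or TGCGCNC on either strand, the core of the metal response element that the factor MTF1 reads. Mt1 lies at chr8:94178839-94179088 and Mt2 at chr8:94172368-94172617, each read up to the base before the gene's start.
Mt1: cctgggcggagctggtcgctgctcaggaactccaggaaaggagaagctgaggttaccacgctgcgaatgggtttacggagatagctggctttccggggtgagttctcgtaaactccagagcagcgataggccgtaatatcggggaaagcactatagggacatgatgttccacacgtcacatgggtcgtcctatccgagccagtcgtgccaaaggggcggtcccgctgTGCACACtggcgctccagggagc
Mt2: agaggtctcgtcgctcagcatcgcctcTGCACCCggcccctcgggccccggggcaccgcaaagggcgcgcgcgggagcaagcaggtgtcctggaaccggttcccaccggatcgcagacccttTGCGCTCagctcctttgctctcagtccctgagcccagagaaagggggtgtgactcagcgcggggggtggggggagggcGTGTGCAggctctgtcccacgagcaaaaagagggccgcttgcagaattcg
Within these 250 bases before the start given by RefSeq, Mt1 held 1 match, ending 17 bases before the start, and Mt2 held 3. Bases past the start or further upstream were not searched, so the counts do not compare the whole promoters. Of 32851 promoters of the same length in the table, 21.4% held at least 1 match to either form and 1.26% held 3 or more. A match describes letters and is not a site.

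Of 13 genes of the acute phase and metallothionein list with at least 50 CPM, 9 were past 2 upwards in AS against the library labelled Healthy and 0 downwards, with a median log2 ratio of 2.58. In MTZ-treated against AS 7 were past 2 downwards and 0 upwards (median -1.87), and in MTZ-preventive against AS 2 were upwards and 2 downwards (median -0.03). Serpina3n, a serine protease inhibitor, was 1 of the 9 and 1 of the 7. Without barcodes holding 3 or more genes of other cells its log2 ratio went from 4.75 to 0.00 in AS over the Healthy label and from -2.81 to 0.54 in MTZ-treated over AS. That filter kept 39 AS members with 61136 UMIs. The 0.00 stands for no Serpina3n UMI in either library, so both filtered ratios rest on levels at the floor. Hp, which codes for haptoglobin, was at 7.68, 1546, 53.3 and 3342 CPM, and Lcn2, lipocalin 2, at 80.4, 532, 122 and 254 CPM. Lrg1, a glycoprotein that venous endothelium also makes, was at 88.6, 1026, 273 and 1005 CPM and outside the gate at 7.35, 698, 30.2 and 614 CPM. Hp and Lcn2 are also made by adipocytes and neutrophils, and Hp outside the gate was at 13.2, 3126, 88.2 and 2961 CPM.

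Genes of macrophages and neutrophils also stood far above the library labelled Healthy in AS. Spp1, osteopontin, had 0.591, 1117, 9.63 and 4.47 CPM, with 1 UMI in the library labelled Healthy, and S100a8 had 15.95, 691, 6.67 and 19.4 CPM. Lyz2 had 1.77, 580, 48.1 and 61.0 CPM and Lgals3, galectin 3, had 15.95, 419, 71.1 and 134 CPM. All 4 were highest in AS, and all 4 stood higher in AS outside the gate too, with 2946 CPM of Spp1 and 4781 CPM of S100a8. For Lgals3 AS was not the highest without barcodes holding 3 or more genes of other cells, where its log2 ratio of MTZ-preventive over AS went from -1.57 to 0.28. Tmem252, a membrane protein, was instead higher within the gate, at 36.0, 636, 61.5 and 255 CPM in the members and at 1.29, 52.9, 5.12 and 8.38 CPM outside the gate.

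MHC class II genes, which present peptides to helper T cells, were low in AS. All 4 with at least 50 CPM (H2-Aa, H2-Ab1, H2-Eb1 and Cd74) were past 2 downwards in AS and past 2 upwards in MTZ-preventive against AS, and 2 of 4 in MTZ-treated against AS. Cd74, the invariant chain, was at 724, 128, 236 and 741 CPM, and H2-Aa at 182, 23.7, 54.8 and 177 CPM. Outside the gate Cd74 was at 7883, 828, 1788 and 3981 CPM, lowest in AS as well. Of the B cell list, the members had 151, 43.9, 19.3 and 182 CPM. Whether the class II reads came from the members or from leukocyte RNA was not tested.

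Most interferon-stimulated genes stood lower in AS than in the library labelled Healthy. Of 12 such genes, 7 were past 2 downwards in AS and 0 upwards (median -1.39), 2 were past 2 upwards in MTZ-treated against AS, and 0 in MTZ-preventive. Isg15, a ubiquitin-like protein, was at 725, 237, 587 and 221 CPM and Bst2, tetherin, at 1025, 340, 710 and 373 CPM. Irf7 was at 216, 67.6, 67.4 and 86.3 CPM. MTZ-treated thus lay near the library labelled Healthy in Isg15 and near AS in Irf7. Isg15 outside the gate was lower, at 239, 133, 182 and 124 CPM.

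The heat shock genes Hspa1a, at 678, 152, 542 and 372 CPM, and Hspa1b, at 400, 79.4, 341 and 212 CPM, were lowest in AS. They are near-identical copies, so that reads can be split between them. Of 20 immediate early and stress genes, 3 were past 2 in AS against the library labelled Healthy, all downwards: these 2 and Nr4a2. Dnajb1, a heat shock co-chaperone, was not past 2, at 443, 277, 459 and 397 CPM. Dbp, a clock-controlled factor, was at 313, 37.2, 170 and 77.7 CPM. Igfbp5, a binding protein of insulin-like growth factors, was at 274, 59.2, 195 and 229 CPM and Igfbp3 at 534, 123, 119 and 167 CPM. Among these, AS was the lowest library except in Igfbp3, where MTZ-treated was within the interval of AS.

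Ccl21a, a chemokine of lymphatic vessels with near-identical gene copies, had 735, 0, 278 and 201 CPM in the members. Against the floor of 3 UMIs, or 5.07 CPM, in AS it was at least 145-fold higher in the library labelled Healthy, at least 54.8-fold in MTZ-treated and at least 39.7-fold in MTZ-preventive. Few members carried it: 5.81% had a Ccl21a UMI in the library labelled Healthy, 0 in that of AS, 3.15% in that of MTZ-treated and 3.28% in that of MTZ-preventive. After thinning to 1000 UMIs the shares were 4.30%, 0, 2.68% and 2.84%, against 0.548%, 0, 0 and 0.675% in the Ptprc-positive barcodes. Without barcodes holding 3 or more genes of other cells, the log2 ratio to AS in MTZ-preventive went from 4.40 to 0.00, and that in MTZ-treated from 4.85 to 0.54. Ccl21a is itself among the genes that this filter counts, and 0.00 stands for no UMI in either library. Where its reads came from was not tested. Ccl21a stood on the Rbp7 and Gpihbp1 side, with 944, 0, 431 and 233 CPM there. In barcodes with no UMI of the 6 endothelial genes it was at 5.32, 2.55, 11.8 and 10.1 CPM. Barcodes with both Prox1 and an endothelial gene are not among these. Prox1 was 0 in every member by the rule.

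Cd36 and Lpl, both higher in these cells than in arterial cells, were lower in MTZ-treated than in AS, while most lipid handling genes were not past a ratio of 2. Of 12 lipid handling genes, 3 were past 2 downwards in MTZ-treated against AS (Cd36, Lpl and Slc27a1) and 0 upwards, with a median log2 ratio of -0.35. Cd36 was at 1224 CPM (1172 to 1278), 1827 (1720 to 1939), 654 (612 to 699) and 1329 (1294 to 1365), and Lpl at 427, 830, 181 and 505 CPM. The adipocyte list was lower in MTZ-treated as well (2780 against 8157 CPM in AS). After thinning to 1000 UMIs, Cd36 was found in 63.5% of AS members and 40.6% of MTZ-treated members, and in 18.2% of 44 and 5.31% of 226 Ptprc-positive barcodes with no endothelial gene. Lpl was found in 38.2% and 12.9% of members, and in 11 (of 44) and 16 (of 226) of those barcodes. Shares in members and in these other barcodes thus both stood higher in AS, and the part of RNA from other cells in the ratios was not tested. Fabp4 varied less, at 19167, 15091, 13775 and 18516 CPM, so that lipid genes did not move as 1 block. MTZ-treated was lowest in Cd36, Lpl and Fabp4. On the Rbp7 and Gpihbp1 side alone the log2 ratio of MTZ-treated to AS was -1.29 for Cd36 (-1.47 over all members) and -1.999 for Lpl (-2.14).

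In MTZ-preventive against AS 1 lipid gene was past 2 upwards, Angptl4, an inhibitor of lipoprotein lipase, at 87.5, 72.7, 86.7 and 216 CPM. Pdk4, a kinase that turns cells from glucose to fatty acid use, was at 13.6, 105, 35.6 and 310 CPM, and Gpx3, a plasma glutathione peroxidase, at 29.0, 167, 55.5 and 690 CPM. Outside the gate Gpx3 was at 60.6, 420, 168 and 759 CPM. All 3 were highest in MTZ-preventive, the library with the highest adipocyte list in the members. Without barcodes holding 3 or more genes of other cells, Gpx3 had a log2 ratio to AS of -0.54 in MTZ-preventive.

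Of the 13 carbonic anhydrase genes, 10 lay under a mean of 50 CPM in the members. Car4 was at 314 CPM (288 to 342), 625 (563 to 692), 188 (166 to 213) and 290 (274 to 307), so that AS stood 3.32-fold above MTZ-treated and 2.15-fold above MTZ-preventive in counting terms. The share of members with a Car4 UMI after thinning to 1000 UMIs was 18.7%, 25.3%, 13.9% and 20.2%, against 0.171%, 2.27%, 0 and 0.506% in the Ptprc-positive barcodes. Car3, which fat and muscle also make, was at 156, 404, 456 and 479 CPM, and outside the gate at 38.1, 908, 104 and 380 CPM. Car7 was at 116, 15.2, 60.7 and 28.8 CPM, with 9 UMIs in AS. Car2, Car9, Car12 and Car14 lay at or under 4.71 CPM in all 4 libraries.

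**Figure D5:**
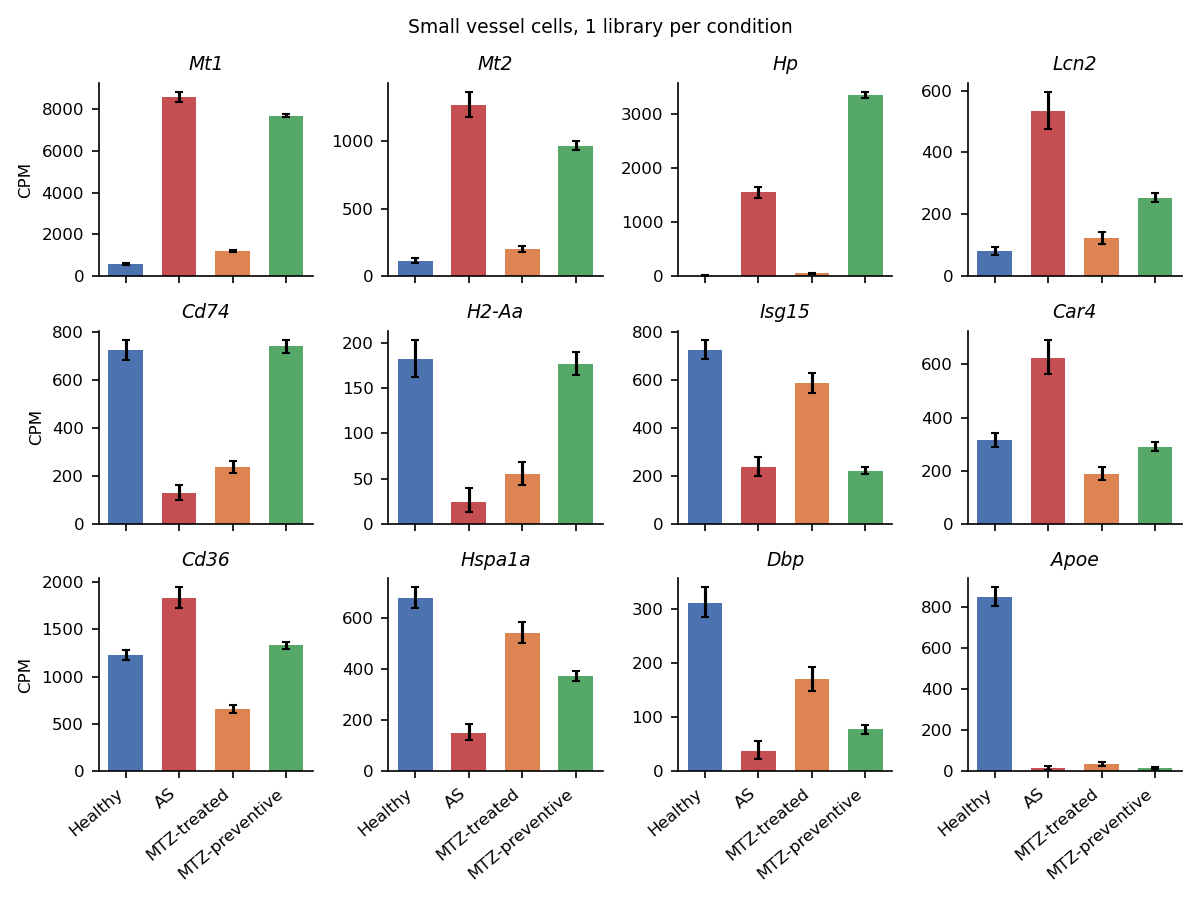
CPM of 12 genes in small vessel cells of the 4 libraries, with exact 95% Poisson intervals that cover counting error alone. Mt1 reached 8561 CPM in AS and 7676 CPM in MTZ-preventive, against 592 and 1195 CPM in the other 2.

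Among the other lists, the genes of vascular tone, clotting and shear gave 2 past 2 upwards and 3 downwards of 15 in AS against the library labelled Healthy, and 3 upwards and 1 downwards in MTZ-treated against AS. Procr, the endothelial protein C receptor, was at 83.9, 28.7, 132 and 104 CPM, and Edn1 at 76.2, 84.5, 217 and 106 CPM. Tm4sf1, a membrane protein of arterial cells, was at 1813, 1039, 3120 and 1307 CPM. MTZ-treated was highest in all 3 genes. Within it, Edn1 was at 498 CPM on the Gja4 and Sema3g side and at 79.6 CPM on the other side. Of 8 cell junction genes 0 were past 2 in any comparison, and all 10 cell cycle genes lay under 50 CPM.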

How the data were processed

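Gene expression was measured by droplet single-cell RNA sequencing in 4 libraries, 1 per condition. The authors deposited raw UMI counts per gene and barcode, made with Cell Ranger 5.0.0 per the file headers; the submitters' processing notes also name STAR and mm10. Deposited receptor contig tables of B and T cells were used only to count barcodes with a contig. Lines with the same gene symbol were summed. No doublet caller was run, but Ptprc and Prox1 had to be at 0.

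UMIs were summed per library and class. Classes were compared with edgeR 4.0.16 (R 4.3.3, quasi-likelihood test, library as block, mean of at least 50 CPM, Benjamini-Hochberg adjustment), leaving out the 20 genes of the gates. Conditions were described by ratios with 10 CPM added. The class test was tested on simulated data: for small vessel against arterial cells (3017 genes) it recovered 71% of 2-fold and 100% of 4-fold changes with 3.93% false calls, and against venous cells (2899 genes) 76%, 100% and 5.38%. The simulated counts had the same dispersion for every gene and the same class effect in every library. These rates hold for that setting alone.

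The members and gene lists were chosen with earlier results of these data known. Besides the gate genes, Igf2, Apoe and list members, genes were named by size: for classes the 12 highest and 8 lowest called genes with at least 100 CPM and the same direction in 4 libraries, for conditions the 8 highest and 8 lowest ratios at 100 CPM. Immunoglobulin, T cell receptor, mitochondrial, hemoglobin (conditions only) and unnamed gene models were left out of that rule. Alternatives were DESeq2 1.42.0, other filters on low genes, thinning to 1000 UMIs, other gate sums, no library block, leaving out each library, shared barcodes or barcodes with genes of other cells, further limits on barcodes, and, chosen after seeing the data, the Rbp7 and Gpihbp1 side only.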

Additional observations from a re-analysis of the deposited data

Results flagged for a closer look

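Receptor contig tables, which no comparison used, held barcodes of small vessel cells. A productive B cell receptor contig was found for 22 members (4.73%, 2.99 to 7.08) of the library labelled Healthy and for 64 members (4.66%, 3.61 to 5.91) of MTZ-preventive, against 2 (0.588%) in AS and 3 (0.472%) in MTZ-treated. A productive T cell receptor contig was found for 5 members (1.08%, 0.350 to 2.49) of the library labelled Healthy. All barcodes within the limits had B cell contigs at 30.0% in the library labelled Healthy, 1.54% in that of AS, 1.61% in that of MTZ-treated and 10.7% in that of MTZ-preventive. The part of such barcodes in the levels was not tested.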

How the results depend on the processing

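Each condition had 1 library, so no condition could be recomputed without it, and depth was least in AS. Of results for single genes, 770 between classes kept their call under the alternatives, 17 lost it, 5 gained it and 0 reversed. Igf2 passed the test against arterial cells under 5 alternatives and lost its call against venous cells under 4. The other 13 lost calls were Tubb3 and Uchl1 against arterial cells (without MTZ-treated), Lpl, Igfbp3, Car3 and Chchd10 against venous cells (without the library block, and the last 2 also without MTZ-preventive), Cxcl10 against venous cells (without Healthy, AS or MTZ-treated), and, between the sides, Vcam1 (barcodes with genes of other cells left out) and Cfd (without the library block). Between conditions 736 stayed, 190 moved and 10 were counted as reversed, all on leaving out barcodes with genes of other cells. That count includes ratios of Serpina3n, Adipoq and Ccl21a that became 0.00, which lost their direction and did not turn it round. No paired analysis was possible because each condition has 1 library, so that the groups share only 1 replicate number.

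Counts of genes higher and lower were 192 and 197 against arterial cells, 301 and 359 against venous cells, and 184 and 218 between the sides. With no filter on low genes they were 819 and 1045, 682 and 748, and 364 and 485. At a mean of 200 CPM they were 46 and 54, 163 and 129, and 79 and 72. Without the library block they were 122 higher against arterial cells, 83 and 112 against venous cells, and 63 and 86 between the sides. Thinning gave 197 higher against venous cells. Leaving out 1 library gave 78 (without MTZ-treated) to 227 higher and 95 (without MTZ-treated) to 254 lower against arterial cells, with 104 higher without MTZ-preventive. Against venous cells it gave 99 (without MTZ-preventive) to 267 higher and 175 (without Healthy) to 380 lower, with 145 higher without Healthy, 169 and 208 without MTZ-treated and 187 lower without MTZ-preventive. Between the sides it gave 139 to 168 higher and 145 (without MTZ-treated) to 165 lower.

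Between conditions (AS over the Healthy label, then MTZ-treated over AS, then MTZ-preventive over AS) the counts past 2 were 174 and 263, 122 and 169, and 132 and 54 at a mean of 20 CPM, and 30 and 29, 17 and 30, and 14 and 10 at 200 CPM. Thinning gave 142 lower in MTZ-treated and 61 lower in MTZ-preventive.

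Leaving out barcodes with 3 or more genes of other cells kept 69, 39, 129 and 128 members. Counts were then 60 and 79 between the sides, and 224 and 334, 262 and 309, and 248 and 246 for the 3 condition comparisons. In AS over the Healthy label the log2 ratio became -0.64 for Adipoq, 0.18 for Rbp7 and 0.00 for Serpina3n. MTZ-treated to AS became 0.00 for Adipoq and 0.54 for Serpina3n. MTZ-preventive to AS became 0.00 for Ccl21a, -0.82 for Chchd10, -0.54 for Gpx3, 1.33 for Igf2 and 0.28 for Lgals3. Adipoq and Ccl21a are among the genes that the filter counts. A ratio of 0.00 here stands for no UMI in either library, and the AS members left held 61136 UMIs. The cause of these changes was not tested.

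In the order of libraries used above, the shares of endothelial barcodes were 37.9%, 49.4%, 34.3% and 46.2% without those barcodes, 22.7%, 34.2%, 18.3% and 26.1% after thinning, 24.2%, 28.8%, 16.2% and 25.7% at a gate sum of 3, and 38.9%, 58.0%, 31.7% and 45.3% at a sum of 1.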

Other observations

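Clock genes (16 in all) were looked at after Dbp had been named for its ratio. AS was the lowest library in 10 of them and the highest in 2, by levels that often rest on few UMIs: AS had 1 UMI of Hlf, 5 of Ciart and 8 of Per2. In the small vessel cells Tef, a related factor, was at 88.0 CPM in the library labelled Healthy, 40.6 in that of AS, 55.5 in that of MTZ-treated and 53.8 in that of MTZ-preventive. Nr1d1, a repressor of the clock, was at 180, 57.5, 97.8 and 154 CPM, and Ciart at 44.9, 8.45, 21.5 and 23.6 CPM. Per1 varied less, at 129, 84.5, 89.6 and 113 CPM. AS was lowest in these 4, in Dbp and Nfil3, and in Hlf, Per2, Per3 and Nr1d2, where it had 1.69, 13.5, 15.2 and 47.3 CPM. Cry2 was highest in AS, at 33.7, 49.0, 39.3 and 41.9 CPM. Clock was at 24.2, 28.7, 24.4 and 30.5 CPM and Arntl at 3.55, 11.8, 2.96 and 14.4 CPM, with AS lowest in neither. Outside the endothelial gate Nr1d1 was highest in AS, at 82.8, 136, 76.5 and 106 CPM, while AS was lowest in Dbp (119, 70.8, 219 and 84.5 CPM), Hlf (14.4, 5.10, 24.7 and 15.2 CPM) and Ciart (146, 14.7, 21.0 and 63.4 CPM). There AS was also lowest in Nr1d2 (48.5, 38.3, 50.8 and 49.2 CPM), but not in Tef, Per1, Per2, Per3 or Nfil3. In the members the AS interval overlapped that of MTZ-treated in Per1 (62.7 to 111 against 74.4 to 107 CPM), Per2 (5.84 to 26.6 against 11.4 to 26.4 CPM) and Nr1d2 (31.4 to 68.4 against 54.9 to 83.6 CPM). It also did in Tef (26.0 to 60.4 against 43.7 to 69.6 CPM) and Ciart (2.74 to 19.7 against 14.4 to 30.8 CPM). The same held for Per3 (6.96 to 28.9 against 23.7 to 43.7 CPM) and Nfil3 (39.8 to 80.3 against 61.6 to 91.7 CPM). Among the genes lowest in AS, these intervals lay apart only in Dbp, Hlf and Nr1d1. Nfil3, which represses the targets of Dbp, was highest in MTZ-preventive, at 76.8, 57.5, 75.5 and 147 CPM. The hour at which the tissue was taken is not given in the sources used here.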
